A study of Mus musculus with 14 samples.

Results

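The interferon-induced genes described here are 37 mouse genes chosen by name as members of the interferon response. The choice was made with earlier results of these data known, so the counts below are a description. The genes were looked up by symbol among the 22850 gene rows of a table of liver RNA. All 37 had a row. They were measured by RNA sequencing in 14 C57BL/6N livers. In the HFWD+sugar group, 5 livers came from mice fed a Western diet rich in fat (HFWD), which supplied 40% of energy as fat, with 42 g/L of sugar in their drinking water, of which 55% was fructose and 45% sucrose. In the HFWD group, 5 livers came from mice on the same high-fat diet without the sugar. In the chow group, 4 livers came from mice on a standard diet with about 12% of energy from fat. The diets began at 7 weeks of age, and the labels give neither the mice's sex nor how long they were fed. The question posed is how liquid sugar changes the liver transcriptome on top of a diet that models fatty liver disease.

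Interferons are cytokines released on infection or tissue injury. Type I and type III interferons signal through JAK kinases to a complex holding STAT2 and IRF9 that binds the interferon-stimulated response element (ISRE), while interferon gamma acts on the gamma-activated sequence (GAS). The induced genes include RNA sensors, enzymes that block viral replication, a ubiquitin-like modifier and GTPases that attack vacuoles of intracellular microbes. In the liver they are made by hepatocytes as well as by Kupffer cells, the resident macrophages. In whole-liver RNA, fewer cells of a type and less RNA per cell cannot be told apart. Most inbred laboratory mouse strains carry defective Mx genes, which limits what the Mx rows can say about protein.

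Each row holds the authors' normalized expression value on a linear scale, called units below, with a floor of exactly 1 that stands for no or almost no reads. One read was worth 2.47 to 6.85 units, so a value under about 20 units rests on a handful of reads. The equivalent read total ran from 3.77 M in chow 4 to 9.34 M, with a median of 8.36 M. Some rows hold levels that belong to a different gene than their name. The row named Alb, the albumin gene, averaged 1486 units per kb of exon, while the row of Rassf6, its neighbour on the other strand of chromosome 5, averaged 3.49e+05 units per kb. For this reason each member is also set beside the rows of its opposite-strand neighbours.

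The ISRE is the sequence by which these genes are known to respond to type I interferon, so promoters of the members the results turn on are shown first. RefSeq promoter windows on GRCm38.p6, from 250 bases before to 50 bases after each start, were found for 26 of the 37 members. None was given for Dhx58, Parp9, Parp14, Rtp4, Usp18, Zbp1, Mx1, Mx2, Oas2, Iigp1 and Gbp6. The windows shown are those of Rsad2 (chr12:26456403-26456702, minus strand) and Cmpk2 (chr12:26468965-26469264, plus strand), the pair with the most reads among the members that rose, of Ddx60 (chr8:61927837-61928136, plus strand) and Irgm1 (chr11:48871371-48871670, minus strand), which rose as well, and of Isg15 (chr4:156200769-156201068, minus strand), a textbook interferon-induced gene that did not pass. Each is written 5′ to 3′ on the strand of its gene, and capitals mark matches to the ISRE core (GAAA, any 2 bases, GAAA) on either strand.
Rsad2: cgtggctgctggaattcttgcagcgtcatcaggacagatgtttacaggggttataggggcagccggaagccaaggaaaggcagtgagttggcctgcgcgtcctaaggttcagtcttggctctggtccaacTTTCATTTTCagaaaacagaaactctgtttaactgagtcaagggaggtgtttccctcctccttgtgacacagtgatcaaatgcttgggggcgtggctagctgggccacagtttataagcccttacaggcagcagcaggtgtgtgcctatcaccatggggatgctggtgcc
Cmpk2: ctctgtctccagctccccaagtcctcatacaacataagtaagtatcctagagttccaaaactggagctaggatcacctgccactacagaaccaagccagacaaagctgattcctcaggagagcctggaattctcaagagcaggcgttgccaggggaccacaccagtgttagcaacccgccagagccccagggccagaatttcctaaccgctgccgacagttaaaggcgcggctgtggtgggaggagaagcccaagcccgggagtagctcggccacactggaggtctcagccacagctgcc
Ddx60: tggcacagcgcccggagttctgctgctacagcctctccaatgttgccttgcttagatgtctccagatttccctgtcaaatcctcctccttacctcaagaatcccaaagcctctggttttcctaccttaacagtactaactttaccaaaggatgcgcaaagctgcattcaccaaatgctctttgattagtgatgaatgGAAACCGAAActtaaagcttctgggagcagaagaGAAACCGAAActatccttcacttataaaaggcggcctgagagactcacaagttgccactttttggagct
Irgm1: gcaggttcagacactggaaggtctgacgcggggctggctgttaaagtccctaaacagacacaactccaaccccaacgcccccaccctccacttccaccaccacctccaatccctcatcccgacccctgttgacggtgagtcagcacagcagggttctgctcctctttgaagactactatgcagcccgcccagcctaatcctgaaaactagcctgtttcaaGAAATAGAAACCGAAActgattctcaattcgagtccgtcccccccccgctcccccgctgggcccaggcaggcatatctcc
Isg15: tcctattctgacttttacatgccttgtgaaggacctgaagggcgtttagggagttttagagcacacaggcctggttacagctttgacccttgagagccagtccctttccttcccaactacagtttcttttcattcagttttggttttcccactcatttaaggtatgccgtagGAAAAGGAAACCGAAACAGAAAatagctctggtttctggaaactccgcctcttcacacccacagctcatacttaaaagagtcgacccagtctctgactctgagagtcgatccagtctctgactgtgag

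The Rsad2 window held 1 match, which lies on the other strand and begins 120 bases before the start. The Cmpk2 window held 0 matches. The 2 matches in Ddx60 begin 53 and 19 bases before the start and read the same letters. The 2 matches in Irgm1 overlap each other, and so do the 3 in Isg15. Over the members with a window, the ISRE core occurred in 15 of 26 (57.7%), against 1079 of 27025 genes with a window (3.99%). It was found in 4 of the 7 called members with a window and in 11 of the 19 members that were not called. The GAS letters TTCNNNGAA, which read alike on both strands and can lie next to an ISRE core, occurred in 6 of 26 members (23.1%), against 9.55% of genes with a window. Of these 6, Ifit2 is 1 called member, and the others are Oas1a, Bst2, Irf1, Igtp and Ifi35. A match is a description of the letters, and a window without one says nothing of the factors.

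In livers of the HFWD+sugar group, 9 of the 36 tested members rose against chow and 0 fell. The 9 were Rsad2, Cmpk2, Herc6, Ifit2, Ifih1, Ddx60, Dhx58, Iigp1 and Irgm1. They rose by 0.70 to 2.25 on the log2 scale. That is 25% of the tested members, beside 5.67% of all 14770 tested rows called higher and 3.38% called lower in the same comparison (limma on log2(value + 1), Benjamini-Hochberg adjusted p under 0.05). The median log2 difference was 0.69 over the tested members and 0.12 over all tested rows, and 29 of the 36 were positive. The 29 include Ifi44, Xaf1 and Oas1a, which stood at the floor in every chow liver and could not come out negative. They also include Dhx58, Zbp1 and Oas3, at the floor in 3 of 4 chow livers, which had little room to do so. The medians over the tested members, here and below, include them too. In 5 members the HFWD+sugar livers all lay above the chow livers (5.96% of all tested rows did), and 13 had an unadjusted p under 0.05 (24.8% of all rows). Oas2 was not tested, because it left the floor in a single chow library. With each library centred on its median row, the split of all called rows turned from 837 higher and 499 lower to 420 higher and 1151 lower, while the members stood at 6 higher and 0 lower. That centring took 0.21 off the members' mean log2 difference, which was 0.50 with it and 0.71 without it.

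In livers of the HFWD group, 1 of the 36 tested members rose against chow, namely Rsad2, and 0 fell. This is 2.78% of the tested members, beside 2.44% of all tested rows called higher and 0.934% called lower. The median log2 difference was 0.35 over the members and 0.04 over all rows, and 12 members had an unadjusted p under 0.05, where 16.2% of all rows did. In 3 members, Rsad2, Cmpk2 and Dhx58, the HFWD livers all lay above the chow livers (3.84% of all rows). For Dhx58 this rests on about the worth of 1 read in HFWD 2 against the same in chow 3. Between HFWD+sugar and HFWD, limma called 0 members and 0 of all tested rows (0%). At an unadjusted p under 0.05 there were 3 members, Ddx60, Igtp and Iigp1, beside 8.62% of all rows. Both Western diet groups are set against the same 4 chow livers, so their values are given side by side and the likeness of the comparisons is not scored.

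**Figure D1:**
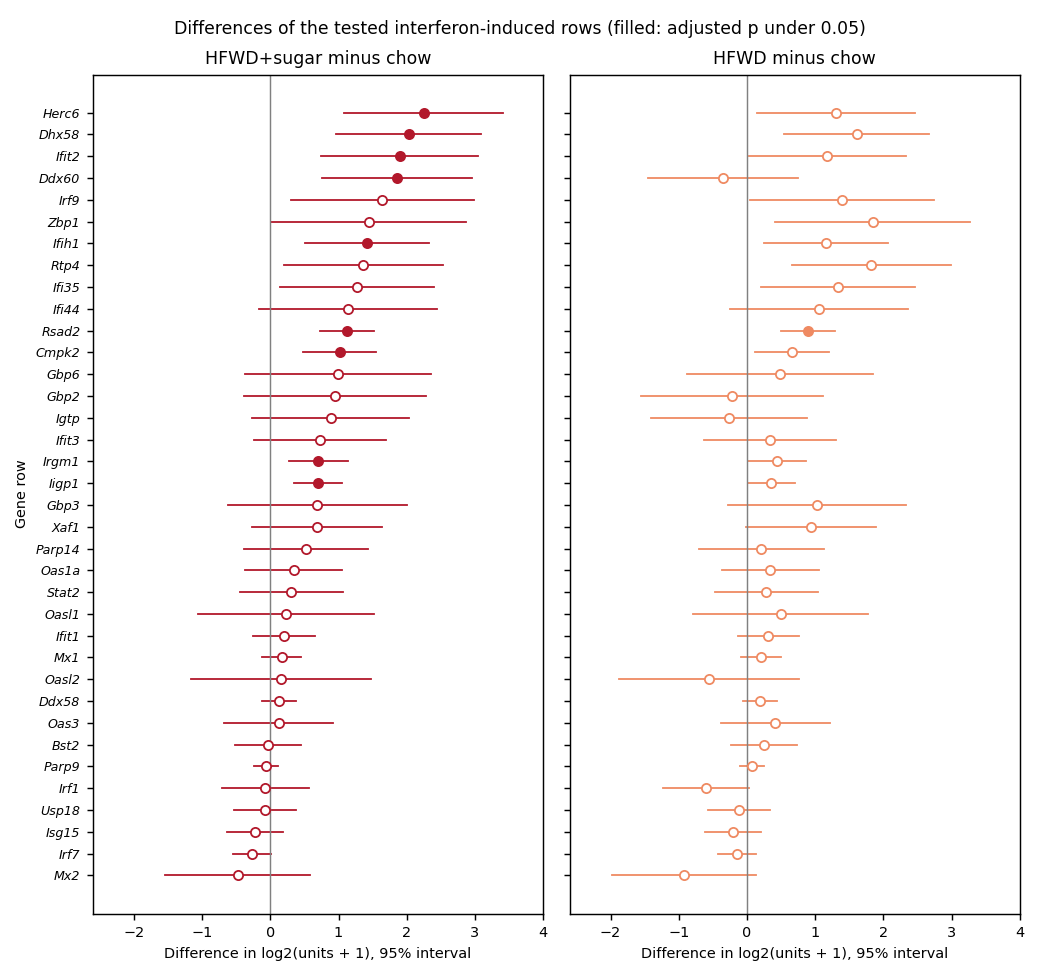
Difference in log2(units + 1) with its 95% interval for each tested member, in HFWD+sugar against chow and HFWD against chow. Filled points have a limma adjusted p under 0.05. There are 9 filled points in the first comparison and 1 in the second.

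Among the antiviral effectors, Rsad2 and Cmpk2 rose in HFWD+sugar livers, and Mx1, Mx2 and Bst2 did not pass. Rsad2 encodes viperin, an enzyme that makes a chain-terminating nucleotide from CTP. Its row had 485, 883, 428, 715 and 679.7 units in HFWD+sugar livers, 453, 474, 498, 509 and 716 units in HFWD livers, and 282, 291, 319 and 239.8 units in chow livers. Every liver of either Western diet group was above every chow liver. The mean was 638 ± 184 units in HFWD+sugar, 530 ± 106 units in HFWD and 283 ± 32.8 units in chow (SD, n = 5, 5 and 4). Against chow, Rsad2 rose by 1.13 ± 0.19 (SE) on the log2 scale in HFWD+sugar, with a limma adjusted p of 0.00154, a 2.19-fold difference. In HFWD it rose by 0.89 ± 0.19, with an adjusted p of 0.0136. HFWD+sugar and HFWD overlapped, and their log2 difference was 0.24 with an interval of -0.14 to 0.61. The HFWD call ended without both chow 2 and chow 4, at an adjusted p of 0.0560, and with no filter on low rows (0.0633) or no variance trend (0.0557).

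Cmpk2 encodes a mitochondrial UMP/CMP kinase that supplies CTP. It lies 12.75 kb from Rsad2 on the opposite strand of chromosome 12, and each is the other's highest neighbour on the other strand. Both rows of this locus rose. Whether they hold reads of both genes or of a single one was not tested. Cmpk2 had 1296, 1658, 1178, 1244 and 1013 units in HFWD+sugar livers, 668, 1087, 678, 876 and 2181 units in HFWD livers, and 661, 645, 664 and 534 units in chow livers. All Western diet livers were above all chow livers, though HFWD 1 and HFWD 3 were barely so, and HFWD 5 was the highest of the 14. Cmpk2 rose in HFWD+sugar by 1.02 ± 0.26 on the log2 scale, from limma with an adjusted p of 0.0211, a 2.02-fold difference. In HFWD its log2 difference was 0.66 ± 0.26 and did not pass (adjusted p = 0.186). Without HFWD+sugar 2, which was the highest of its group, the adjusted p was 0.0534.

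Mx1 and Mx2 encode dynamin-like GTPases that trap viral particles. Mx1 had 458, 436, 391, 450.4 and 435 units in HFWD+sugar livers, 411, 420.3, 585, 489.9 and 352 units in HFWD livers, and 335, 418, 355 and 444 units in chow livers. The groups overlapped, and the log2 difference of HFWD+sugar from chow was 0.17 with an interval of -0.12 to 0.46. Mx2 had 347, 173, 414, 361 and 162 units in HFWD+sugar livers, 199, 247, 106, 169 and 353 units in HFWD livers, and 291, 1575, 260.3 and 170.2 units in chow livers. A single chow liver, chow 2, stood far above the other 13, and the groups otherwise overlapped. Bst2, which encodes tetherin, a membrane protein that holds budding virus at the cell surface, had 72.8, 101, 76.9, 145 and 129 units in HFWD+sugar livers, 145, 122, 136, 115 and 105 units in HFWD livers, and 115, 89.8, 82.0 and 137 units in chow livers. Its groups overlapped as well, with a log2 difference of -0.03 between HFWD+sugar and chow.

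**Figure D2:**
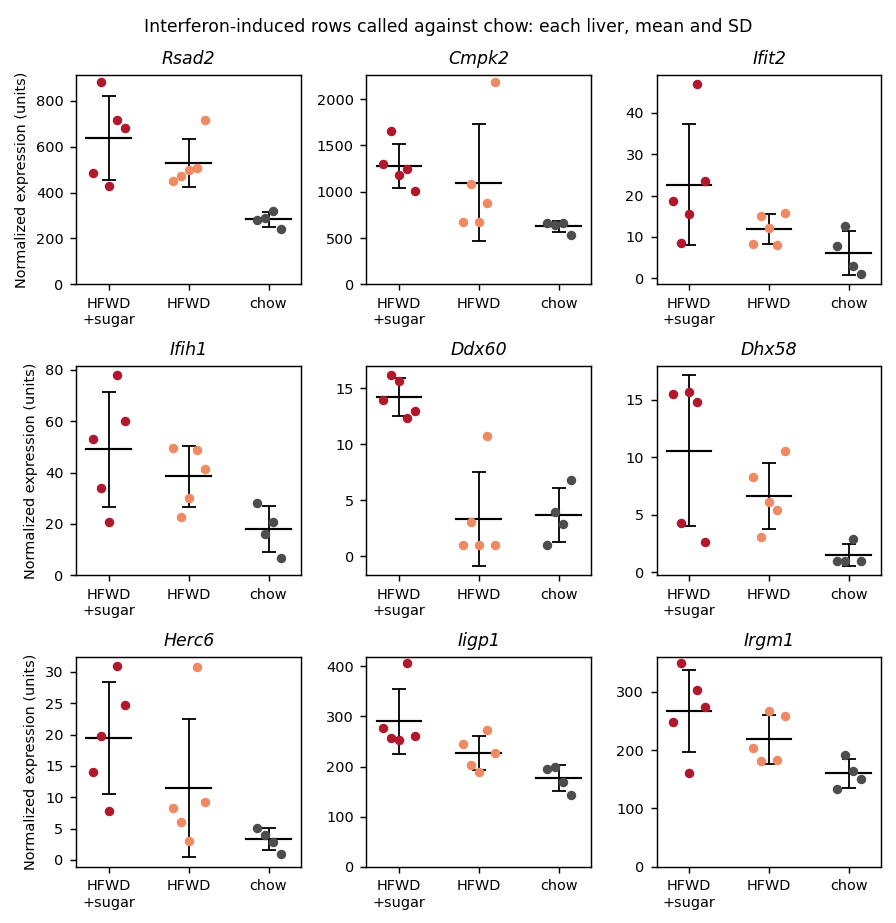
Normalized expression in units of the 9 members called in any comparison, 1 panel a row, with 1 point a liver for HFWD+sugar, HFWD and chow and bars for the group mean and SD. Rsad2 and Cmpk2 have the highest values, and 5 of the 9, namely Rsad2, Cmpk2, Herc6, Iigp1 and Ddx60, show HFWD+sugar livers wholly above chow livers.

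Of the 3 members of the ISG15 conjugation pathway, Herc6 rose in HFWD+sugar and Isg15 and Usp18 did not pass. Herc6 is the ligase that attaches ISG15 to proteins in mice. It had 13.99, 19.7, 7.82, 30.9 and 24.7 units in HFWD+sugar livers, 8.31, 6.04, 3.04, 30.8 and 9.24 units in HFWD livers, and 5.13, 3.98, 2.88 and 1 units in chow livers. All HFWD+sugar livers were above all chow livers, while HFWD livers overlapped both groups. Herc6 rose by 2.25 ± 0.55 on the log2 scale (limma adjusted p = 0.0182), the highest difference among the called members, on a mean equivalent of 7.30 reads in HFWD+sugar and 1.16 in chow. Without HFWD+sugar 4 the adjusted p was 0.0547. With the floor raised to the worth of 1 read of the shallowest library it was 0.105.

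Isg15, the ubiquitin-like protein itself, had 235, 217, 245, 259 and 223 units in HFWD+sugar livers, 224, 236, 261, 179.5 and 313 units in HFWD livers, and 241, 350.3, 371 and 185 units in chow livers. HFWD+sugar livers lay close together, inside the range of the chow livers. The log2 difference from chow was -0.23 (interval -0.64 to 0.18) in HFWD+sugar and -0.21 in HFWD. Usp18, the protease that removes ISG15 and dampens the type I receptor, had 139, 125, 105, 131 and 128 units in HFWD+sugar livers, 126, 73.4, 137, 160.1 and 133 units in HFWD livers, and 108, 183, 134 and 115 units in chow livers. Its groups overlapped, with log2 differences from chow of -0.08 in HFWD+sugar (interval -0.54 to 0.38) and -0.12 in HFWD.

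The 3 IFIT members encode proteins that bind foreign RNA. Ifit2 rose in HFWD+sugar, and Ifit1 and Ifit3 did not pass. Ifit2 had 18.7, 8.46, 15.6, 47.0 and 23.4 units in HFWD+sugar livers, 8.31, 15.1, 12.2, 8.04 and 15.8 units in HFWD livers, and 7.69, 12.7, 2.88 and 1 units in chow livers. The groups overlapped, since HFWD+sugar 2 lay below chow 2, and HFWD+sugar 4 was the highest of all. The rise was 1.90 ± 0.55 on the log2 scale (limma adjusted p = 0.0392), and the call ended when any of HFWD+sugar 1, HFWD+sugar 4, HFWD+sugar 5, chow 3 or chow 4 was left out, with an adjusted p of up to 0.109. Ifit1 had far higher values, with 7997, 7096, 11622, 9216 and 11540.1 units in HFWD+sugar livers, 8809, 8304, 10228, 12189 and 11327 units in HFWD livers, and 9752, 4862, 7297 and 12363 units in chow livers. Its lowest and its highest value were both in chow livers, and the log2 difference of HFWD+sugar from chow was 0.20 with an interval of -0.25 to 0.66. Per kb of exon the Ifit1 row averaged 3566 units, against 201 for Slc16a12, its highest opposite-strand neighbour. Whether the Ifit1 row holds reads of Ifit1 alone was not tested. Ifit3 ran from 21.7 to 56.4 units in HFWD+sugar, 18.1 to 40.6 units in HFWD and 6.85 to 42.5 units in chow.

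Of the 5 sensors of foreign nucleic acid, Ifih1, Ddx60 and Dhx58 rose in HFWD+sugar, and Ddx58 and Zbp1 did not pass. Ifih1 encodes MDA5, a sensor of long double-stranded RNA. It had 52.8, 33.8, 20.9, 77.9 and 59.9 units in HFWD+sugar livers, 49.7, 22.6, 30.2, 48.8 and 41.2 units in HFWD livers, and 28.2, 15.9, 20.6 and 6.85 units in chow livers. The groups overlapped through HFWD+sugar 3, and chow 4, the library with the fewest reads, was lowest. Ifih1 rose by 1.42 ± 0.43 on the log2 scale (limma adjusted p = 0.0478). That call ended in 11 of the fits that left out 1 library, among them those without chow 4 (log2 difference 1.05, adjusted p = 0.108) and without HFWD+sugar 4 (adjusted p = 0.127).

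Dhx58 encodes LGP2, a relative of MDA5 that tunes its signalling. It had 15.5, 4.23, 15.6, 14.8 and 2.60 units in HFWD+sugar livers, 8.26, 3.02, 6.08, 5.36 and 10.6 units in HFWD livers, and 1, 1, 2.88 and 1 units in chow livers. All HFWD livers were above all chow livers, where 3 of 4 stood at the floor, while HFWD+sugar 5 was below chow 3. The values of HFWD 2, chow 3 and HFWD+sugar 5 were each about the worth of 1 read. Their order is that of the units per read, which were 3.02, 2.88 and 2.60. Dhx58 rose in HFWD+sugar by 2.03 ± 0.51 on the log2 scale (limma adjusted p = 0.0203), and in HFWD its log2 difference of 1.61 ± 0.51 did not pass (adjusted p = 0.0940). With the floor raised to the worth of 1 read of the shallowest library, the HFWD+sugar difference was 0.63 (adjusted p = 0.140). The call also ended without HFWD+sugar 1 (0.0501), without HFWD+sugar 4 (0.0598) or without chow 1 (0.0539).

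Ddx60 encodes a helicase that promotes signalling by RNA sensors. It had 13.99, 16.2, 15.6, 12.3 and 13.0 units in HFWD+sugar livers, 1, 3.02, 1, 10.7 and 1 units in HFWD livers, and 1, 3.98, 2.88 and 6.85 units in chow livers. HFWD+sugar livers lay together above every liver of the other groups, on a mean equivalent of 5.24 reads in HFWD+sugar, 1.19 in HFWD and 0.972 in chow. It was the 1 member whose HFWD+sugar and HFWD livers did not overlap, beside 0.941% of all tested rows not overlapping in that direction. Ddx60 rose against chow by 1.86 ± 0.52 on the log2 scale (limma adjusted p = 0.0353). Against HFWD the log2 difference was 2.21 ± 0.49 and did not pass (adjusted p = 0.460). The call against chow ended in 7 of the fits that left out 1 library, and without chow 1 the adjusted p was 0.109.

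Ddx58 encodes RIG-I, the sensor of short RNA with a 5′ triphosphate. Its row had the highest mean of all members, 21579 units, with 20743, 19141, 25754, 20815 and 22021 units in HFWD+sugar livers, 22361, 23053, 22352, 22662 and 22576 units in HFWD livers, and 22173, 14912, 19346 and 24199 units in chow livers. The groups overlapped, and the interval of the HFWD+sugar difference from chow was -0.13 to 0.37 on the log2 scale. Per kb of exon the Ddx58 row averaged 3061 units, against 190 for Aco1, its opposite-strand neighbour. Whether the Ddx58 row holds reads of RIG-I alone was not tested. Zbp1, a sensor of Z-form nucleic acid that can start cell death, ran from 1 to 18.2 units in HFWD+sugar, 1 to 18.8 units in HFWD and 1 to 2.65 units in chow. Its log2 differences from chow were 1.44 in HFWD+sugar (adjusted p = 0.198) and 1.84 in HFWD (adjusted p = 0.164).

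**Figure D3:**
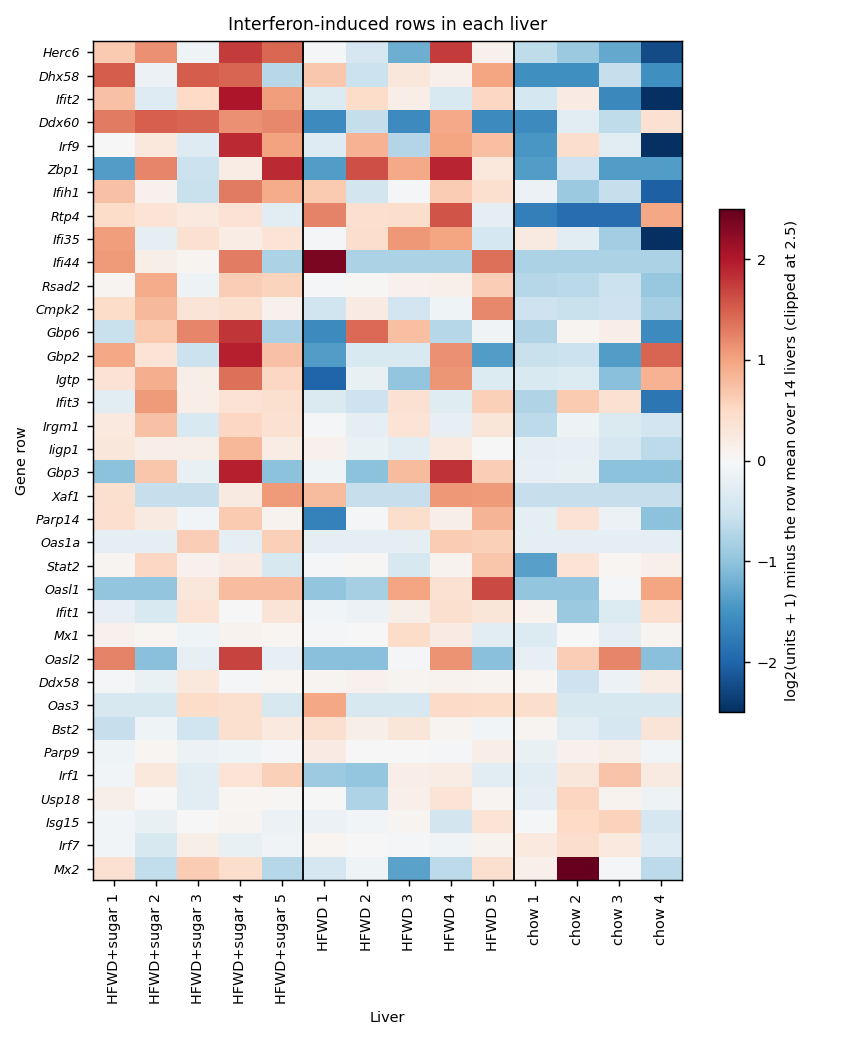
Colour gives log2(units + 1) minus the row's mean over 14 livers, clipped at 2.5, for each tested member in HFWD+sugar, HFWD and chow livers. HFWD+sugar 4 has the highest value of 11 of the 36 members, and 13 of them stand at the floor in chow 4.

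Of the 6 GTPases that act against intracellular microbes, Iigp1 and Irgm1 rose in HFWD+sugar, and Igtp, Gbp2, Gbp3 and Gbp6 did not pass. Iigp1, also known as Irga6, coats the vacuoles of parasites such as Toxoplasma. It had 277, 257, 253, 406 and 260.4 units in HFWD+sugar livers, 246, 203, 189, 272 and 227 units in HFWD livers, and 195, 199, 170.0 and 144 units in chow livers. All HFWD+sugar livers were above all chow livers, while HFWD 3 lay inside the chow range. The rise was 0.70 ± 0.17 on the log2 scale (limma adjusted p = 0.0153), a 1.62-fold difference, and it remained past the threshold in every fit that left out 1 library, at adjusted p of 0.0142 to 0.0433. Against HFWD the log2 difference was 0.34 (interval 0.01 to 0.67), which did not pass after adjustment (0.571).

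Irgm1, which regulates the coating GTPases and autophagy, had 249, 349, 162, 303 and 275 units in HFWD+sugar livers, 203, 181, 267, 182 and 259 units in HFWD livers, and 133, 192, 163 and 151 units in chow livers. HFWD+sugar 3 lay among the chow livers, and the other 4 were above them all. Irgm1 rose by 0.71 ± 0.20 on the log2 scale (limma adjusted p = 0.0388), a 1.63-fold difference, and the call ended in 7 of the fits that left out 1 library, with an adjusted p of up to 0.103. The other 4 GTPase rows were low. Igtp ran from 7.82 to 19.8 units in HFWD+sugar, 1 to 16.1 units in HFWD and 2.88 to 13.7 units in chow. Gbp2, Gbp3 and Gbp6, guanylate-binding proteins that break open vacuoles, peaked at 19.4, 14.8 and 19.8 units, each in HFWD+sugar 4.

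None of the 4 transcription factor rows was called, with limma calls of 0 in each comparison and 1 at an unadjusted p under 0.05 in each comparison with chow. Irf7, the amplifier of type I interferon production, had 1677, 1328, 1950.4, 1552 and 1652 units in HFWD+sugar livers, 1808, 1736, 1718, 1645 and 1870.3 units in HFWD livers, and 2071, 2398, 2069 and 1404 units in chow livers. Of the chow livers 3 were above every Western diet liver and chow 4 was near the bottom, with a log2 difference of -0.27 for HFWD+sugar (interval -0.54 to 0.01). Without chow 4 the Irf7 difference was -0.42 and passed the limma threshold as lower in HFWD+sugar (adjusted p = 0.0164), and with array weights it was -0.34 and also passed (adjusted p = 0.0442). Irf1, a transcription factor strongly induced by interferon gamma, had 55.1, 70.0, 47.8, 74.0 and 88.4 units in HFWD+sugar livers, 30.6, 29.5, 65.5, 66.6 and 47.5 units in HFWD livers, and 48.6, 70.7, 96.5 and 68.1 units in chow livers. The groups overlapped. Stat2 and Irf9 encode parts of the ISRE-binding complex. Irf9 ran from 12.4 to 60.2 units in HFWD+sugar, 9.12 to 32.2 units in HFWD and 1 to 21.7 units in chow, with a log2 difference of 1.64 ± 0.64 in HFWD+sugar that did not pass (adjusted p = 0.117). Stat2 ran from 23.4 to 45.1, 23.6 to 51.2 and 11.5 to 40.1 units in HFWD+sugar, HFWD and chow.

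The 2-5A synthetases make an oligonucleotide that activates RNase L. Oas1a, Oas2, Oas3, Oasl1 and Oasl2 had rows at or near the floor, with a highest value of 12.4 units, in Oasl2 of HFWD+sugar 4, and limma called 0, with 0 at an unadjusted p under 0.05. Of the remaining 6 members limma called 0, with 2 at an unadjusted p under 0.05 in either comparison with chow. Parp9, an ADP-ribosyltransferase partner of the ligase DTX3L, had 4083, 4525, 3923, 4080.5 and 4255 units in HFWD+sugar livers, 5035, 4381, 4353, 4309 and 4922 units in HFWD livers, and 3848, 4681, 4814 and 4158 units in chow livers. The groups overlapped, with a log2 difference of -0.06 for HFWD+sugar (interval -0.24 to 0.11). Parp14, an ADP-ribosyltransferase, ran from 27.4 to 45.8 units in HFWD+sugar, 8.31 to 52.8 units in HFWD and 13.7 to 37.2 units in chow. Rtp4, a receptor chaperone, Ifi35, Ifi44 and Xaf1 did not exceed 28.5 units in any liver. Without chow 4, Rtp4 passed as higher in HFWD+sugar, with a log2 difference of 2.07 (limma adjusted p = 0.00520), and in HFWD, with 2.53 (adjusted p = 0.00165). Ifi44, Xaf1 and Oas1a were the 3 tested members at the floor in all 4 chow livers, so they passed the filter on low rows through Western diet livers and had to differ in that direction. Members at the floor in some chow livers also needed Western diet livers to pass that filter. This holds most for Dhx58, which was called, and for Zbp1 and Oas3, all at the floor in 3 of 4 chow livers.

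Of the 14 members with a mean of at least 50 units, 4 rose in HFWD+sugar against chow, 7 of 14 differences were positive and the median was 0.04 on the log2 scale, below the 0.12 of all rows. Of the 22 tested members under 50 units, 5 rose, 22 differences were positive and the median was 0.97. The members that rose were 28.6% at 50 units or more and 22.7% below, beside 5.67% of all tested rows. Positive differences among other rows under 50 units were not counted. The 22 of 22 is thus not shown to be particular to these members. These 22 include Ifi44, Xaf1 and Oas1a, which stood at the floor in every chow liver and could not come out negative. Dhx58, Zbp1 and Oas3, at the floor in 3 of 4 chow livers, had little room to do so. In HFWD against chow the medians were 0.20 at 50 units or more and 0.72 below. Chow 4, the shallowest library, was the lowest chow liver for some low members, such as Ifih1 and Ifit3. It was the highest chow liver for others, such as Ddx60, Rtp4, Igtp and Gbp2. In chow 4 a read was worth 6.85 units, which is also its value of Ifih1, Ifit3 and Ddx60. Its values of Rtp4, Igtp and Gbp2 were at most 13.7 units, so these ranks rest on very few reads. The part of chow 4 in these medians was not tested.

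Averaged over the 36 tested members, log2(units + 1) per liver was 5.68 ± 0.25 in HFWD+sugar, 5.44 ± 0.27 in HFWD and 4.96 ± 0.19 in chow (SD, n = 5, 5 and 4), given with no test. These means include Ifi44, Xaf1 and Oas1a, which stood at the floor in every chow liver and so could only lower the chow means. HFWD+sugar livers ran from 5.50 to 6.12 and were all above the chow livers, which ran from 4.76 to 5.21. HFWD livers ran from 5.17 to 5.80, and HFWD 1 lay below chow 2. Over the 14 members of at least 50 units the means were 9.32 ± 0.09, 9.22 ± 0.14 and 9.12 ± 0.14, and the groups overlapped. HFWD+sugar 4 had the highest value in 11 of the 36 members, and without it 3 members were called in HFWD+sugar against chow in place of 9. The number of tested members at the floor was 1 to 5 in HFWD+sugar, 1 to 8 in HFWD and 7 to 13 in chow livers. Without Ifi44, Xaf1 and Oas1a, which had to be at the floor more often in chow, it was 0 to 4 in HFWD+sugar, 0 to 7 in HFWD and 4 to 10 in chow livers, and the groups overlapped. Chow 4 had the highest of these counts and, with 3.77 M, the fewest equivalent reads, and the part of depth in them was not tested.

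**Figure D4:**
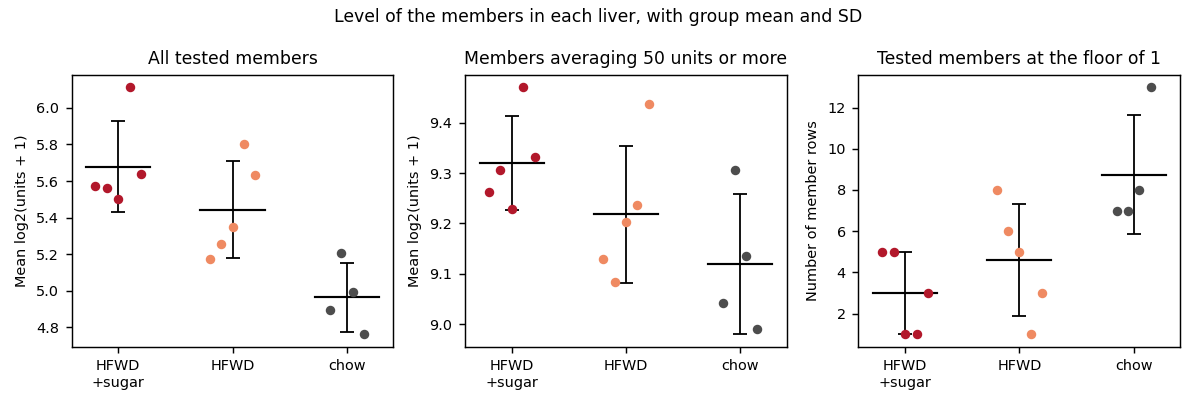
Mean of log2(units + 1) in each liver over the tested members and over the members with a mean of at least 50 units, and number of tested members at the floor of 1, with group mean and SD for HFWD+sugar, HFWD and chow. HFWD+sugar livers lie above chow livers for the tested members, and the groups overlap for the members of at least 50 units.

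Some rows on the opposite strand beside the members also rose. Each of the 37 members had such a row within 200 kb, and the highest of them was taken, which gave 34 rows, of which 32 were tested and 3 are members themselves (Rsad2, Cmpk2 and Mx2). Per kb of exon this neighbour row was higher than the member's own row for 31 of 37, and in units it was more than 3 times the member's row for 24. Of the 32 rows, 9 rose and 1 fell in HFWD+sugar against chow, beside 5.67% and 3.38% of all tested rows, and 6 rose and 1 fell in HFWD against chow, beside 2.44% and 0.934%. Without the rows that are members themselves, 7 of 29 rose and 1 fell in HFWD+sugar, and 5 rose and 1 fell in HFWD. Between HFWD+sugar and HFWD, limma called 0, with 2 at an unadjusted p under 0.05. With median centring, the HFWD+sugar split was 4 higher and 3 lower. The sources used here do not say how reads were assigned to strands, so reads of a member and of an opposite-strand partner cannot be told apart.

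The gap in level was widest at a few loci. The row of Il23a, a cytokine subunit gene, averaged 26689 units beside 32.8 units for Stat2, or 19638 against 7.45 units per kb of exon. Hspb9 averaged 5519 units beside 6.57 for Dhx58, Palld 3054 units beside 7.33 for Ddx60, and Masp1, a lectin-pathway protease gene, 2156 units beside 8.42 for Rtp4. The row of Psme2, a proteasome activator subunit gene that is itself known to respond to interferon gamma, averaged 3115 units beside 20.8 for Irf9. Gm4841 averaged 14381 units beside 236 for Iigp1, Hspbap1 2763 units beside 31.3 for Parp14, and AW011738 1518 units beside 253 for Isg15. Gemin5 averaged 622 units beside 8.57 for Igtp. Ppm1k averaged 205 units beside Herc6, Pkn2 133 units beside Gbp2 and Eltd1 17.9 units beside Ifi44. None of these rows was called in any comparison.

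Several called neighbours belong to interferon-induced families. Oas1b, a 2-5A synthetase beside Oas2 and Oas3 and well known for resistance to flaviviruses in mice, had 77.7, 112, 62.6, 94.0 and 112 units in HFWD+sugar livers, 86.2, 84.6, 81.0, 95.8 and 97.1 units in HFWD livers, and 48.0, 31.3, 42.8 and 20.6 units in chow livers. Every Western diet liver was above every chow liver. Oas1b rose by 1.37 ± 0.26 in HFWD+sugar (limma adjusted p = 0.00353) and by 1.36 ± 0.26 in HFWD (adjusted p = 0.00591) on the log2 scale. Oas1d, beside Oas1a, had 399.7, 363, 274, 512 and 568 units in HFWD+sugar livers, 313, 304, 417, 414 and 458 units in HFWD livers, and 189, 317, 219 and 202 units in chow livers. Chow 2 was the 1 chow liver within the Western diet range, and the rise of 0.85 ± 0.21 in HFWD+sugar had an adjusted p of 0.0169. Gm14446, which RefSeq names Ifit1bl1, lies beside Ifit2 and Ifit3 and had 547, 615, 569, 736 and 831 units in HFWD+sugar livers, 432, 450.0, 691, 576 and 728 units in HFWD livers, and 399, 419, 424 and 301 units in chow livers. All Western diet livers exceeded all chow livers, and it rose by 0.77 ± 0.17 in HFWD+sugar (adjusted p = 0.0115). The nearest opposite-strand row to Ifit1, 2010002M12Rik, which RefSeq names Ifit1bl2, rose by 0.85 in HFWD+sugar (adjusted p = 0.0138) and by 0.97 in HFWD (adjusted p = 0.00981).

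Other called neighbours have no tie to interferon that the sources used here give. Fam125a (RefSeq Mvb12a), a subunit of the ESCRT-I sorting complex beside Bst2, averaged 6435 ± 648 units in HFWD+sugar, 6613 ± 566 units in HFWD and 4482 ± 242 units in chow, with no overlap between either Western diet and chow. It rose by 0.52 in HFWD+sugar (limma adjusted p = 0.00194) and by 0.56 in HFWD (adjusted p = 0.00149). Aco1, the cytosolic aconitase and iron regulatory protein beside Ddx58, averaged 1058 ± 163, 1133 ± 157 and 712 ± 137 units in HFWD+sugar, HFWD and chow, and rose by 0.58 (adjusted p = 0.0193) and 0.68 (adjusted p = 0.0135) in the Western diets. Slc16a12, a monocarboxylate transporter beside Ifit1, rose by 1.33 (adjusted p = 0.0311) and 1.36 (adjusted p = 0.0460) in HFWD+sugar and HFWD. Pdlim5, beside Gbp3 at 164.4 kb, rose by 0.94 in HFWD+sugar, and Aarsd1, beside Ifi35, fell by 0.33. In HFWD against chow, Trim7, beside Irgm1, rose by 0.51 (adjusted p = 0.0367), and Pck1, the gluconeogenic enzyme gene beside Zbp1, fell by 0.60 (adjusted p = 0.0230). Among opposite-strand neighbours that were not the highest of their locus, Lipa beside Ifit2 and Ifit3 (log2 difference 0.95), Vat1 beside Ifi35 (0.48), Bace2 beside Mx1 (1.24) and Gtpbp3 beside Bst2 (0.30) rose in HFWD+sugar against chow, and Spryd4 beside Stat2 fell by 0.87.

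**Figure D5:**
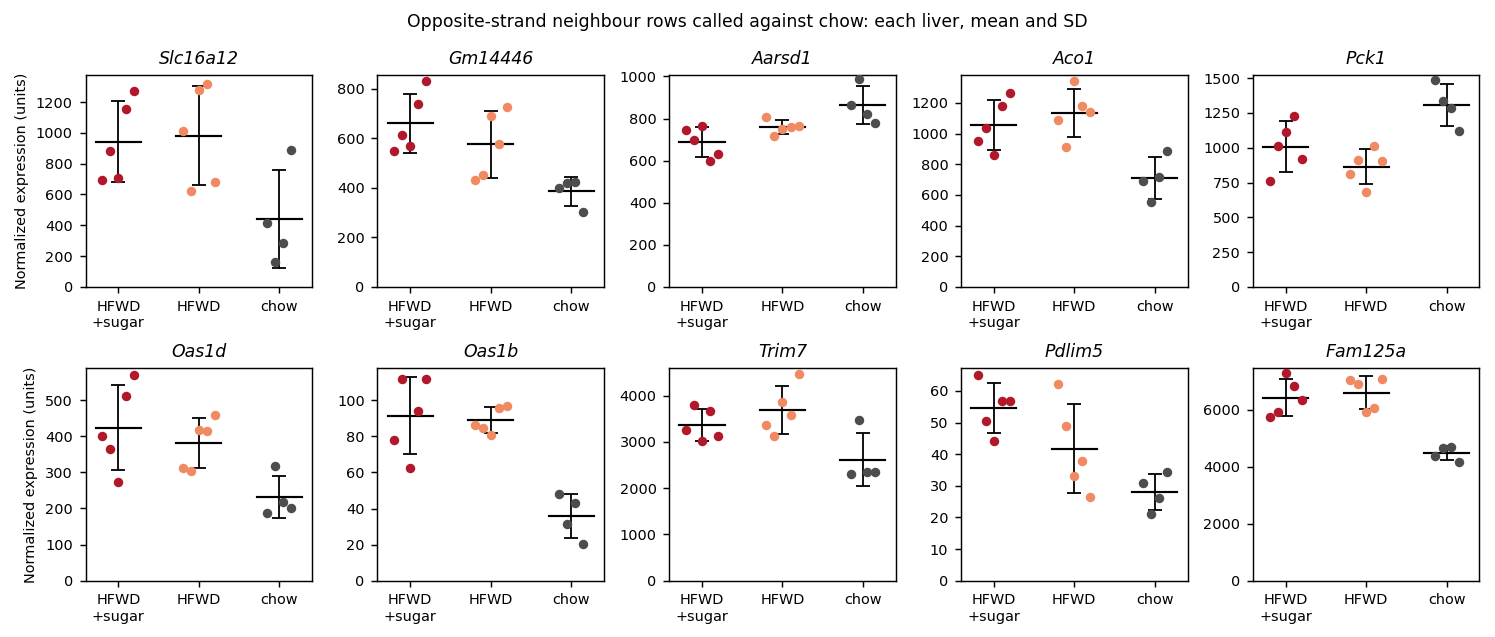
Normalized expression in units of opposite-strand neighbour rows called in a comparison, 1 panel a row, with 1 point a liver for HFWD+sugar, HFWD and chow and bars for the group mean and SD. Oas1b, Gm14446 and Fam125a have all HFWD+sugar and HFWD livers above all chow livers.

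The rest of the pathway was counted in the same fit. Of 19 listed interferon genes, 2 were tested, and Ifna13 fell in HFWD+sugar with a mean of 2.77 units against 11.2 units in chow, a level of a few reads. Of 14 tested receptors and signalling genes, Jak2 and Stat3 rose and Ptpn11, which encodes the phosphatase SHP2, fell in HFWD+sugar, and 0 were called in HFWD. In HFWD+sugar, 5.67% of all tested rows were called higher and 3.38% lower. The median log2 difference of these 14 genes there was -0.08, below the 0.12 of all tested rows. Jak2 averaged 169 ± 16.4 units in HFWD+sugar and 112 ± 10.5 units in chow (adjusted p = 0.0256). Of 17 tested sensors and adaptors, limma called 0 in any comparison, with 1, 4 and 3 at an unadjusted p under 0.05 in HFWD+sugar against chow, HFWD against chow and HFWD+sugar against HFWD. Of all tested rows, 24.8%, 16.2% and 8.62% had such a p in these comparisons. Of 67 other tested interferon-induced genes, 10 rose and 1 fell in HFWD+sugar, beside 5.67% and 3.38% of all tested rows, and 5 rose in HFWD, beside 2.44%. The median log2 differences were 0.61 in HFWD+sugar and 0.36 in HFWD, where all tested rows had 0.12 and 0.04. Those that rose in both were Ifi27l1, Trim34a, Tap1, Cd274 and Oas1b. The Oas1b row is the one already counted among the called opposite-strand neighbours, so these lists are not separate. Ifi27l1 averaged 1175 ± 258 units in HFWD+sugar, 804 ± 102 units in HFWD and 316 ± 86.2 units in chow. Tap1, a subunit of the peptide transporter for MHC class I, averaged 1114 ± 213, 1106 ± 131 and 593 ± 201 units in HFWD+sugar, HFWD and chow. Cd274 encodes PD-L1 and averaged 623 ± 120, 553 ± 77.7 and 346 ± 58.1 units. Lgals9, Psmb9, Sp110, Pml and Rnf213 rose in HFWD+sugar and did not pass in HFWD, a difference between the diets that was not called, and Znfx1 fell.

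The summed level of 12 macrophage markers was 2332 to 2805 units in HFWD+sugar, 2431 to 2871 units in HFWD and 2025 to 3020 units in chow, and C1qa and Cd5l rose in HFWD+sugar while 10 did not pass. C1qa averaged 22.0 ± 13.3 units in HFWD+sugar and 6.40 ± 7.08 units in chow, and Cd5l 106 ± 55.8 and 35.3 ± 12.5 units. Of 6 plasmacytoid dendritic cell markers, 4 were tested and 0 called, the sum was 101 to 162, 69.4 to 145 and 80.3 to 230.0 units in HFWD+sugar, HFWD and chow, and Pacsin1 stood at the floor in every liver. Neutrophil markers summed to at most 9.64 units over 6 rows, and Ly6g stood at the floor throughout. Of 11 T and NK cell markers, Cd3e, Nkg7 and Klrb1c were at the floor throughout, and their sum was 12628 to 16365 units in HFWD+sugar and 14464 to 15483 units in HFWD, both wholly below the 16816 to 19172 units in chow. That sum is mostly the row named Cd8a, at 14578 units in HFWD+sugar and 17703 units in chow, a fall in HFWD+sugar. Of the 5 tested T and NK rows, 4 differences from chow were positive and 1 negative in HFWD+sugar. In HFWD 3 were positive and 2 negative, so the sum does not stand for the list. B cell markers summed to 19.03 to 32.6 units in HFWD+sugar, 15.5 to 22.5 units in HFWD and 5 to 26.1 units in chow, and endothelial markers to 1405 to 1936, 1445 to 2144 and 1408 to 2556 units. Of 6 fibroblast and stellate cell markers, which summed to 165 to 379.7, 130.4 to 293 and 139 to 269 units, Col3a1 rose in HFWD+sugar. Of 10 hepatocyte markers, which summed to 16921 to 24838, 14688.5 to 21978 and 19287 to 25215 units, Cps1, Ass1 and Tat fell in HFWD+sugar while 7 did not pass. The list includes the row named Alb, whose level lies far below that of its neighbour Rassf6. This sum therefore does not measure hepatocyte content. The part of these cells in the members' rise was not tested.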

How the data were processed

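The authors deposited 1 normalized signal value per gene row and library, on a linear scale. Per the submitters' processing notes, FastQC, TopHat2 2.0, SAMtools and the build mm9 were used. Read counter, strand setting and scaling were not given in the sources used here. Per the labels' protocols, ribosomal RNA was removed before library preparation. The labels do not state that each library came from a separate animal, so p-values may measure only the spread between these samples. Replicates differed beyond sampling noise (chi-square of 6.62 to 57.2 per degree of freedom over 26 pairs).

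Of the low values, 53.9% to 63.9% were whole multiples of 1 read within a tolerance of 0.02, so no count test was run. R 4.3.3 and limma 3.58.1 fitted log2(value + 1) with 3 group means over 14 libraries (eBayes with a variance trend), 2-sided. Tested rows exceeded the floor of 1 in 4 or more libraries, with Benjamini-Hochberg adjustment over 14770 rows and a threshold of 0.05. Folds are on the log2(value + 1) scale, which understates low rows. A simulation was also used to check the fit. Its outcome is not given here, so it lends no weight to the calls, those on low rows included. The members and lists were chosen with earlier results of these data known. Values in every library are given for called members and for those with a mean of at least 50 units. The highest neighbour rows were named where called or above 3 times the member's level, and 1 such row is not reported here. Opposite-strand neighbours were those overlapping a member or nearest on each side within 200 kb. The alternatives were pseudocount, filter, scaling, spread, samples, floor and neighbour choice.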

Additional observations from a re-analysis of the deposited data

Results flagged for a closer look

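A single liver stood far from the others of its group, by Dixon's ratio at the 95% level on linear values, in 9 of 87 groups tested. The nominal rate of about 1 in 20 holds for independent, normally spread values. These groups share livers and some hold values at the floor, so the count cannot be set against that rate. In HFWD+sugar, Iigp1 was 405.7 units in HFWD+sugar 4, with the nearest liver at 276.7 units. In HFWD, Rsad2 was 715.6 units and Cmpk2 was 2181 units in HFWD 5, with the nearest livers at 509.1 and 1087 units. HFWD 4 had 10.72 units of Ddx60, the nearest liver having 3.02 units, and 30.79 units of Herc6, the nearest having 9.242 units. In chow, Mx2 was 1575 units in chow 2, against 291.3 units in the nearest liver, and the neighbour row Trim7 was 3464 units in chow 2, against 2348 units. Cmpk2 was lowest in chow 4, at 534.3 units, with the next at 644.8 units. Dhx58 was 2.881 units in chow 3, about the worth of 1 read, and 1 in the other chow livers.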

How the results depend on the processing

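The rise of Rsad2 and of Iigp1 in HFWD+sugar against chow passed in every alternative run, and no called member changed sign. The other 7 called members lost the call in at least 1 alternative. Members called in HFWD+sugar against chow numbered 2 with no filter, 5 with a mean of at least 20 units, 4 with quantile normalization, 4 with no variance trend, 3 with the floor raised to 1 read of the shallowest library, and 5 without both chow 2 and chow 4, in place of 9. Irf7 was called lower in HFWD+sugar with array weights (-0.34) and without chow 4 (-0.42), where Rtp4 was called higher in both Western diets, as it was without both chow 2 and chow 4. Irf9 was called higher in HFWD+sugar without chow 2. Leaving out 1 library gave 3 to 9, and 1 to 2 in HFWD against chow. There, 0 members were called with no filter or no variance trend and 2 with array weights, in place of 1. Rows called in HFWD+sugar against chow were 774 with no filter, 745 with no variance trend, 2174 with array weights and 768 with only the 2 groups compared, in place of 1336, and 679 to 1768 when 1 library was left out. In HFWD against chow they were 309 with no filter, 275 with median centring, 246 with no variance trend, 1021 with array weights, 920 without both chow 2 and chow 4 and 270 with only the 2 groups compared, in place of 499, and 260 to 1050 when 1 library was left out, the highest without chow 4. Neighbour rows called in HFWD+sugar were 5 with no filter and 6 with no variance trend in place of 10, and 5 to 13 when 1 library was left out. In HFWD they were 2 with either of these and 4 with the raised floor in place of 7, and 4 to 8 when 1 library was left out. Between HFWD+sugar and HFWD, 0 to 1 rows and 0 members were called when 1 library was left out. The raised floor and the choice of the nearest neighbour row, which called 11 and 7 rows, were chosen after seeing the data. The cause of these changes was not tested. Members under 50 units averaged at most 18.3 equivalent reads per group (Ifih1 in HFWD+sugar), which limits their precision. No paired analysis was possible because the labels give each library its own number and none is shared between groups.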
